A study of Sus scrofa with 20 samples.

Results

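The genes described here build or organise the postsynaptic side of the neuromuscular junction. At this contact a motor nerve ending releases acetylcholine onto a muscle fibre. Of the 10 genes named for it, 8 had a probe set under their platform symbol, namely CHRNA1, CHRNB1, CHRND, CHRNE, CHRNG, MUSK, DOK7 and AGRN. They held 13 of the 47845 probe sets on the array, and all 13 passed the filter on low signal. RAPSN, which anchors acetylcholine receptors beneath the membrane, and LRP4, the receptor for agrin, had no probe set under their symbols and were not analysed here. The genes were chosen by symbol, and each was read from its probe set of highest mean over all arrays. No sequence of these genes or probes was used.

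RNA came from longissimus, a large muscle along the spine, of 20 female pigs (Sus scrofa). The animals fell into 10 with low residual food intake (RFI) and 10 with high RFI, where a low value means that a pig eats less than its growth and maintenance predict. Each animal had 1 single-colour Affymetrix Snowball array, and values are log2 signals. Genotype, breed, age and litter of the groups are not given in the sources used here, and the labels give no treatment. The number of arrays limits the precision.

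As background, the muscle acetylcholine receptor is a ring of subunits that opens a cation channel when acetylcholine binds. CHRNA1 encodes the main subunit of the binding sites, and CHRNB1 and CHRND encode partner subunits. CHRNG encodes the subunit of fetal and denervated muscle, which innervated adult fibres replace with the CHRNE product. The nerve secretes agrin, which acts through LRP4 on the receptor kinase MuSK. DOK7 activates MuSK from inside the fibre, and rapsyn then clusters the receptors. Adult fibres transcribe most of these genes mainly in the few nuclei under the synapse, and denervation raises several of them along the whole fibre. In whole muscle, fewer junctions and less RNA per junction cannot be told apart.

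The array medians lay between 2.79 and 2.89, and the correlation between arrays over the tested probe sets lay between 0.916 and 0.978. Background control probe sets had a mean of 3.64 over the arrays, ranging from 1.02 to 7.84 with their base composition, so this mean is only a rough mark for a single probe set. Their mean per array was 3.66 ± 0.16 in low RFI and 3.61 ± 0.13 in high RFI (SD, n = 10 each). Of the 11 measured skeletal muscle markers 10 lay above the background mean, among them ACTA1 at 13.9, CKM at 13.2 and MYH7 at 11.7. The exception was PYGM, the muscle glycogen phosphorylase, whose brightest probe set had a mean of only 2.93. A low signal is therefore not read here as a scarce transcript.

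No neuromuscular junction gene passed the test between low and high RFI after adjustment for all tested probe sets. CHRNG, the fetal receptor subunit, had the smallest unadjusted p and was 0.28 ± 0.11 (SE) higher in low RFI on the log2 scale. CHRND stood at 0.23 ± 0.14, and the other 6 measured genes differed by between -0.21 and 0.073. By Benjamini-Hochberg adjusted p in limma, 0 of the 8 genes passed 0.05, against 0% of all 33405 tested probe sets, and every adjusted p among the 8 was 0.998. At an unadjusted p under 0.05, limma counted 1 of the 8 genes, against 3.91% of all tested probe sets in either direction and 2.48% in the direction higher in low RFI. A rank-sum test also called 0 of the 8 genes after adjustment. The median difference of the 8 genes was -0.0054, beside -0.0028 over the 12119 genes represented.

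**Figure D1:**
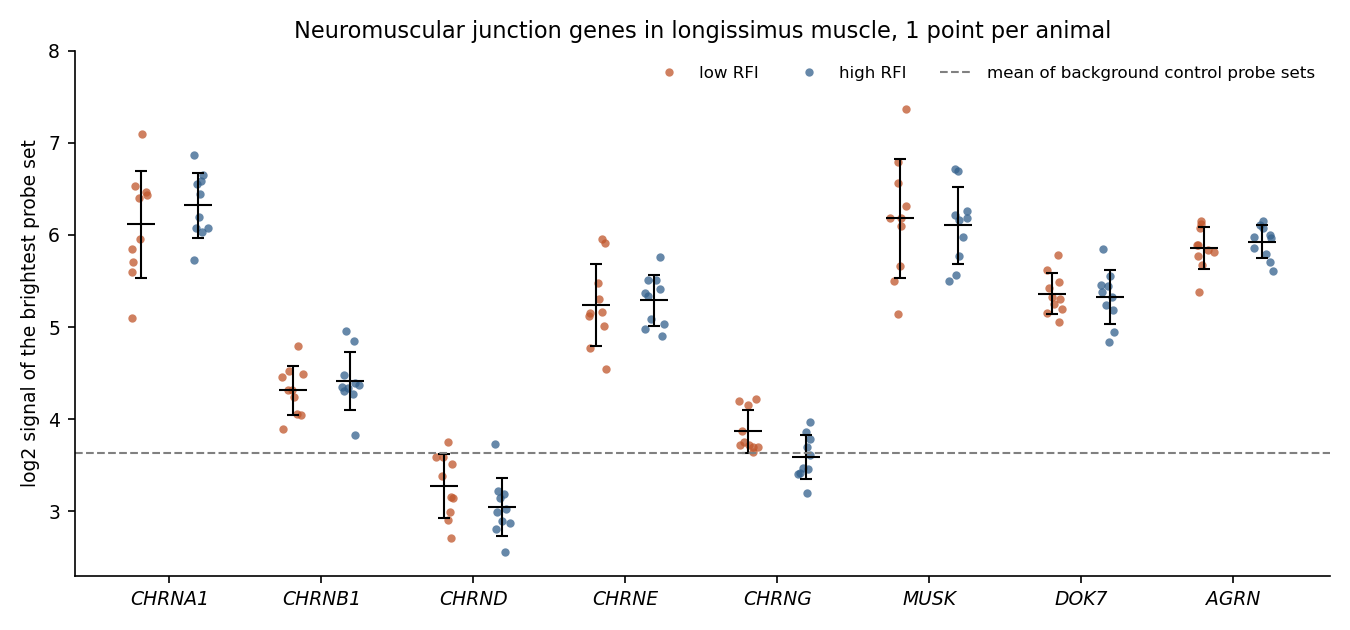
Log2 signal of the brightest probe set of each measured gene (vertical axis), with 1 point per animal, low RFI left of high RFI, and bars giving the mean ± SD of 10 animals. The dashed line marks the background control mean of 3.64; the groups overlap for all 8 genes, and CHRNG and CHRND lie around or below the line.

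CHRNA1 had the widest spread of the receptor subunits. In low RFI its lowest, median and highest animals read 5.10, 6.18 and 7.09, against 5.72, 6.32 and 6.87 in high RFI. The groups overlapped, and both the highest and the lowest animal belonged to low RFI. The mean was 6.11 ± 0.58 in low RFI and 6.32 ± 0.35 in high RFI (SD, n = 10 each). The difference was -0.21 with a 95% interval from -0.62 to 0.21 (limma, p = 0.311, adjusted p = 0.998). It was -0.095 without low RFI replicate 1, the lowest animal, and -0.32 without low RFI replicate 4, the highest. A dimmer CHRNA1 probe set read below the background controls on all 20 arrays and differed by 0.019. It followed the brighter one weakly (r = 0.276, permutation p = 0.237; rho = 0.308, permutation p = 0.183; r = 0.215 without the 2 arrays farthest from the median), so the CHRNA1 values rest on 1 probe set.

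CHRNB1 and CHRND encode the subunits present in both the fetal and the adult receptor. CHRNB1 read 3.89, 4.32 and 4.79 at its lowest, median and highest in low RFI, and 3.83, 4.36 and 4.96 in high RFI. The highest 2 animals were of high RFI, and the difference was -0.10 (95% interval -0.37 to 0.17; limma p = 0.444, adjusted p = 0.998). With the background signal as a covariate it was -0.028, and with single arrays left out it lay between -0.16 and -0.040. CHRND read 2.71, 3.27 and 3.76 in low RFI, and 2.55, 3.01 and 3.73 in high RFI. The groups overlapped, with 1 low RFI animal above and 1 high RFI animal below the other group, and 7 of 10 low RFI animals lay above the high RFI median. Its difference of 0.23 had a 95% interval from -0.066 to 0.53 (limma, p = 0.121, adjusted p = 0.998). CHRND exceeded the mean background control signal of the same array on only 4 of 20 arrays.

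CHRNG, the fetal subunit, gave the clearest separation in the set, though one that did not pass the adjusted test. In low RFI the lowest, median and highest animals read 3.65, 3.74 and 4.22, and in high RFI they read 3.20, 3.54 and 3.97. All 10 low RFI animals lay above the high RFI median, 3 of them lay above every high RFI animal, and 6 high RFI animals lay below every low RFI animal. The mean was 3.87 ± 0.23 in low RFI and 3.59 ± 0.24 in high RFI (SD, n = 10 each), a signal ratio of 1.22 (limma, p = 0.0169, adjusted p = 0.998). Over the 11 alternatives that kept CHRNG and with each array left out in turn, the difference lay between 0.24 and 0.32. Its unadjusted p (limma or rank-sum test) lay between 0.00663 and 0.0371. The filter at a mean of at least 5 left CHRNG out. CHRNG exceeded its own array's background control mean on 12 of 20 arrays. Its correlation with that background was 0.335 (permutation p = 0.150; rho = 0.250, permutation p = 0.291; 0.401 without the 2 arrays farthest from the median) over all arrays, -0.059 within low RFI and 0.695 within high RFI. With the background as a covariate the difference was 0.26 (limma, p = 0.0253). Fibroblast and tendon markers were higher in low RFI for 9 of 10 measured genes (median 0.20, none passing the adjusted test), beside 5966 of the 12119 genes represented. The means of this list ran from 7.15 to 7.57 in low RFI and from 6.99 to 7.54 in high RFI. The r of these markers with CHRNG was -0.0084 (permutation p = 0.972; rho = -0.015, permutation p = 0.951; 0.117 without 2 arrays) over all arrays, 0.054 within low RFI and -0.637 within high RFI. Their part in the CHRNG value was not tested further.

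CHRNE, the adult counterpart of CHRNG, did not pass the test between groups. It read 4.54, 5.16 and 5.95 at its lowest, median and highest in low RFI, and 4.90, 5.35 and 5.76 in high RFI. The 2 highest and the 2 lowest animals were all of low RFI. Its difference of -0.048 had a 95% interval from -0.38 to 0.28 (limma, p = 0.764, adjusted p = 0.998), and its sign turned with slow fibre markers as a covariate (0.024) and when the 4 arrays with most background signal were dropped (0.081). The signal of CHRNG less that of CHRNE, taken within each array, averaged -1.37 ± 0.47 in low RFI and -1.70 ± 0.27 in high RFI (SD, n = 10 each). Its lowest, median and highest values were -2.21, -1.20 and -0.89 in low RFI, and -2.15, -1.58 and -1.40 in high RFI. The difference between groups was 0.33 ± 0.17 (SE), close to the CHRNG difference alone. The RefSeq table of Sscrofa11.1 lists the CHRNE locus as a long noncoding RNA, a label of that annotation, whereas all the other genes named here are listed as protein coding.

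MUSK, the kinase that receives the agrin signal, varied most between animals. In low RFI it read 5.14, 6.18 and 7.37 at its lowest, median and highest, against 5.50, 6.18 and 6.72 in high RFI. Low RFI held the 2 highest and the 2 lowest animals, and the medians of the groups were nearly equal. The difference was 0.073 (95% interval -0.39 to 0.54; limma p = 0.747, adjusted p = 0.998), and it was -0.059 without low RFI replicate 8, the animal of highest signal. The highest animal stood 4.68-fold above the lowest in signal. The SD of 0.53 over all arrays exceeded that of 87.0% of the 3424 tested probe sets whose mean lay within 0.5 of it. For CHRNA1 that share was 83.1% and for AGRN 16.5%. The other MUSK probe set lay above its array's background on all 20 arrays, differed by 0.14 and followed the first (r = 0.752, permutation p = 8e-05; rho = 0.689, permutation p = 0.0012; 0.644 without the 2 arrays farthest from the median). Over the 8 such pairs of probe sets from 1 gene, its adjusted p was 6.4e-04.

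DOK7, the activator of MuSK inside the fibre, read 5.05, 5.32 and 5.78 in low RFI at its lowest, median and highest, and 4.84, 5.35 and 5.84 in high RFI. High RFI held both its highest and its 2 lowest animals. The difference of 0.038 (95% interval -0.21 to 0.28; limma p = 0.752, adjusted p = 0.998) was -0.016 without high RFI replicate 5. AGRN, whose nerve-derived form starts the signal and which muscle and other cells also make, read 5.38, 5.86 and 6.15 in low RFI, and 5.61, 5.97 and 6.15 in high RFI. Its highest values were equal to 2 decimals in both groups, and it differed by -0.065 (95% interval -0.27 to 0.14; limma p = 0.516, adjusted p = 0.998). Without low RFI replicate 6, its lowest animal, the difference was -0.012. All 4 AGRN probe sets were lower in low RFI, with the other 3 at -0.13, -0.0054 and -0.036. They followed each other unevenly, with r from -0.068 to 0.563 over the 6 pairs, of which 1 had an adjusted permutation p under 0.05 for r (0.0268), and that pair's rho was 0.417 (adjusted permutation p = 0.137). By rho 2 other AGRN pairs passed (adjusted permutation p = 0.0408 and 0.0126), so the call depended on the measure.

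**Figure D2:**
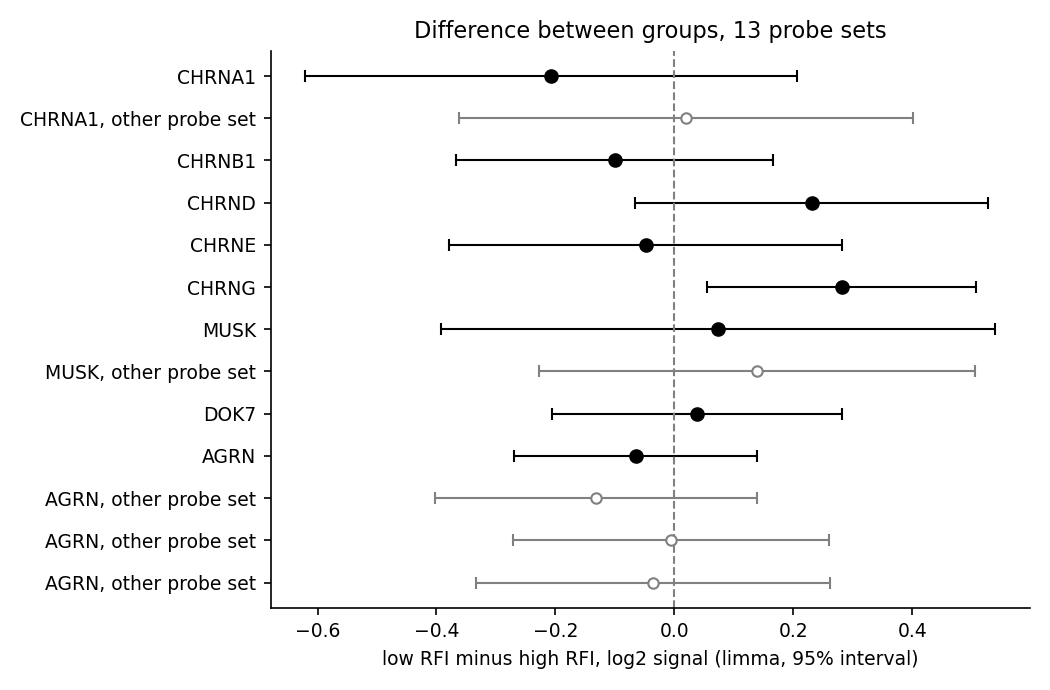
Difference in log2 signal, low RFI minus high RFI (horizontal axis), for each of the 13 probe sets, with limma's unadjusted 95% interval. Filled points are the brightest probe set of a gene and open points the others; only the CHRNG interval, from 0.055 to 0.51, lies clear of 0.

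The measured genes were loosely related to each other between animals. Over the 28 pairs of the 8 genes the median r across the 20 animals was 0.084, with a range from -0.46 to 0.59 and 18 pairs above 0. None passed a permutation test after Benjamini-Hochberg adjustment over the pairs, by r or by rho, and 2 had an unadjusted p under 0.05 by r. CHRND and CHRNG, which stand next to each other with 0 genes between them in the Sscrofa11.1 gene table, had r = 0.079 (permutation p = 0.740; rho = -0.024, permutation p = 0.922; 0.016 without the 2 arrays farthest from the CHRND median). CHRNE and CHRNG had r = 0.190 (permutation p = 0.424; rho = 0.292, permutation p = 0.211; 0.194 without the 2 arrays farthest from the CHRNE median).

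DOK7 and AGRN had the highest correlation among the pairs. Their r was 0.588 (permutation p = 0.00655, adjusted p = 0.183) and their rho 0.611 (permutation p = 0.00558). It was 0.555 without the 2 arrays farthest from the DOK7 median, 0.706 within low RFI and 0.558 within high RFI. Schwann cell markers, a list of 13 genes of which 10 were measured, had r = 0.551 with DOK7 (permutation p = 0.0116, adjusted p = 0.186; rho = 0.546, permutation p = 0.0141; 0.605 without the 2 arrays farthest from the list's median). With AGRN they had r = 0.437 (permutation p = 0.0556, adjusted p = 0.413; rho = 0.442, permutation p = 0.0537; 0.363 without 2 arrays). For DOK7 the r was 0.250 within low RFI and 0.817 within high RFI, and for AGRN it was 0.579 and 0.240. Of the 10 markers 8 lay above the background mean, SOX10 at 5.95 and MBP at 4.61 among them. The mean of the list ran from 4.41 to 4.79 in low RFI and from 4.44 to 4.86 in high RFI. Of the 10 markers 6 were higher and 4 lower in low RFI. The smallest p belonged to PRX at -0.28 (limma p = 0.0100, adjusted p = 0.998). Next was MAL, whose mean of 2.33 lay below background, at -0.32 (limma p = 0.0155, adjusted p = 0.998). The part of Schwann cells in the DOK7 and AGRN values was not tested.

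CHRNB1 and DOK7 ran against each other with r = -0.459 (permutation p = 0.0430, adjusted p = 0.602; rho = -0.368, permutation p = 0.111). Without the 2 arrays farthest from the CHRNB1 median it was -0.150. After both genes were regressed on the background control signal it was -0.27 (permutation p = 0.250). CHRNB1 also ran against the background control signal of its array. There r was -0.735 (permutation p = 2.8e-04, adjusted p = 0.0134) and rho -0.720 (permutation p = 6e-04), with -0.584 without the 2 arrays farthest from the median, -0.638 within low RFI and -0.839 within high RFI. It was the only one of 48 relations between the 8 genes and 6 measures (slow fibre, fast fibre, Schwann, adipocyte and fibroblast markers, and background) to pass after adjustment, and 5 had an unadjusted p under 0.05. Running against background was not particular to CHRNB1, as the fast fibre mean had r = -0.748 with it. CHRNB1 had r = 0.520 with fast fibre markers (permutation p = 0.0188, adjusted p = 0.226), and -0.067 after both were regressed on background. Among the others, CHRNE had r = 0.602 with the mean of the slow fibre markers (permutation p = 0.00528, adjusted p = 0.127; rho = 0.624, permutation p = 0.00416), which was 0.794 within low RFI and 0.290 within high RFI. Without the 2 arrays farthest from the median of the slow fibre mean it was 0.485. All 11 measured slow fibre markers were lower in low RFI (median -0.097, 0 passing the adjusted test), beside 6153 of the 12119 genes represented. The smallest limma p among these markers was 0.248. The list mean ran from 8.16 to 9.75 in low RFI and from 8.44 to 9.81 in high RFI. The part of fibre type in the CHRNE values was not tested beyond the covariate above.

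**Figure D3:**
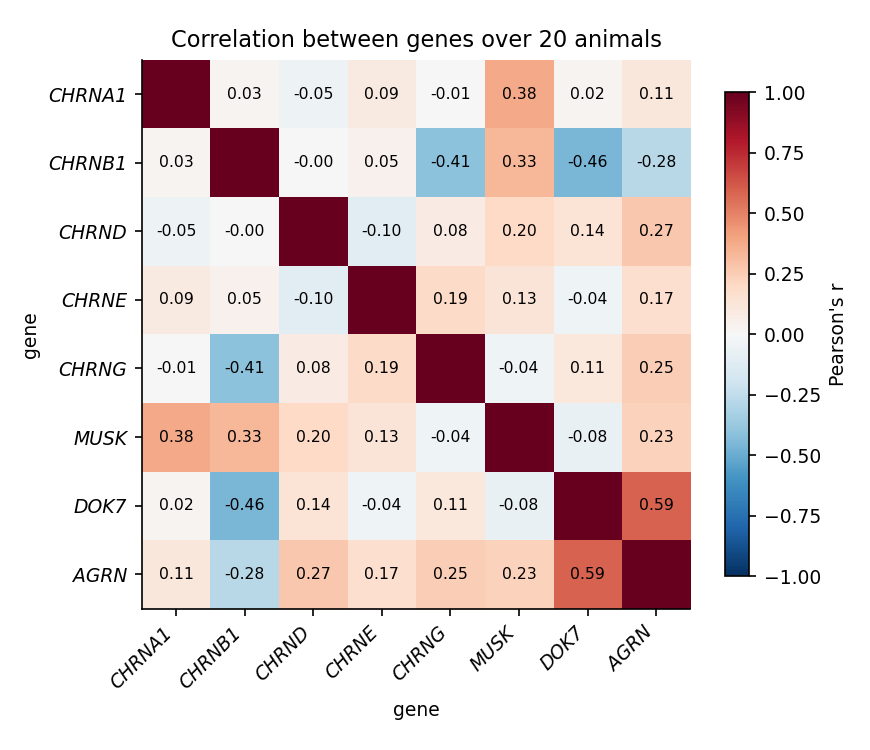
Pearson's r over the 20 animals for each pair of the 8 measured genes, from -1 (blue) to 1 (red), with the value printed in each cell. DOK7 with AGRN is the highest pair at 0.59 and CHRNB1 with DOK7 the lowest at -0.46.

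No animal was high for more than 4 of the 8 genes. Low RFI replicates 3, 4 and 9 each ranked among the 5 highest animals for 4. Replicates 3 and 9 were both high for CHRND, DOK7 and AGRN, while replicate 4 was high for CHRNA1, CHRNB1, CHRNG and MUSK. High RFI replicate 7 ranked among the 5 lowest for 5 genes, CHRNA1, CHRNE, CHRNG, DOK7 and AGRN, and had the highest CHRNB1 of all. MUSK and AGRN were both among the lowest 5 in low RFI replicates 1 and 10, which were also low for CHRNA1.

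For 7 of the 8 genes, all but the dim CHRND, the most similar patterns among 12118 other genes were searched, and the closest found was that of NES to MUSK. NES encodes nestin, an intermediate filament protein found beneath the junction in adult fibres. Over the 20 animals MUSK and NES had r = 0.906 and rho = 0.850. NES read 5.84, 6.90 and 7.81 in low RFI at its lowest, median and highest, against 6.19, 6.74 and 7.28 in high RFI. Low RFI replicates 8 and 4 were the highest and second highest for both genes, and low RFI replicate 10 was the lowest for both. The correlation was 0.829 without the 2 arrays farthest from the MUSK median, 0.960 within low RFI, 0.80 within high RFI, and 0.901 after both genes were regressed on the background control signal.

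The NES relation was picked here as the highest r, and the search itself carried no test. NES also stands in a list of junction genes described below, chosen with earlier results of these data known. Over 656 relations of the measured genes with such list genes, only MUSK with NES passed by r. Its permutation p was 1e-05, and the adjusted p was 0.00656 by r and by rho. The relation is read as a description of these 20 animals. The dimmer MUSK probe set had r = 0.721 and rho = 0.713 with the same NES probe set. The other 4 NES probe sets had r from 0.220 to 0.726 with the brighter MUSK probe set and from 0.047 to 0.486 with the dimmer one. Of these 4, those with means of 2.38 and 1.82 lay below the background mean. Nestin is also made by Schwann and satellite cells. Schwann cell markers had r = -0.056 with MUSK (permutation p = 0.812; rho = -0.072, permutation p = 0.762) and 0.137 with NES (permutation p = 0.564; rho = 0.123, permutation p = 0.604). Satellite cell markers (7 of 8 measured) had r = 0.366 with MUSK (permutation p = 0.112; rho = 0.281, permutation p = 0.230) and 0.306 with NES (permutation p = 0.190; rho = 0.341, permutation p = 0.141). With fibroblast markers and background these made 8 relations, and the lowest adjusted p among the 8 was 0.420. The satellite list includes DES, which read as bright as some of the skeletal muscle markers, and PAX3, which lay below the background mean. Its mean is therefore not read as a measure of satellite cells alone. The part of satellite cells in the MUSK and NES values was not tested. Like MUSK, NES did not pass the test between groups, with a mean of 6.91 ± 0.59 in low RFI and 6.70 ± 0.34 in high RFI (SD, n = 10 each; limma p = 0.311, adjusted p = 0.998).

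**Figure D4:**
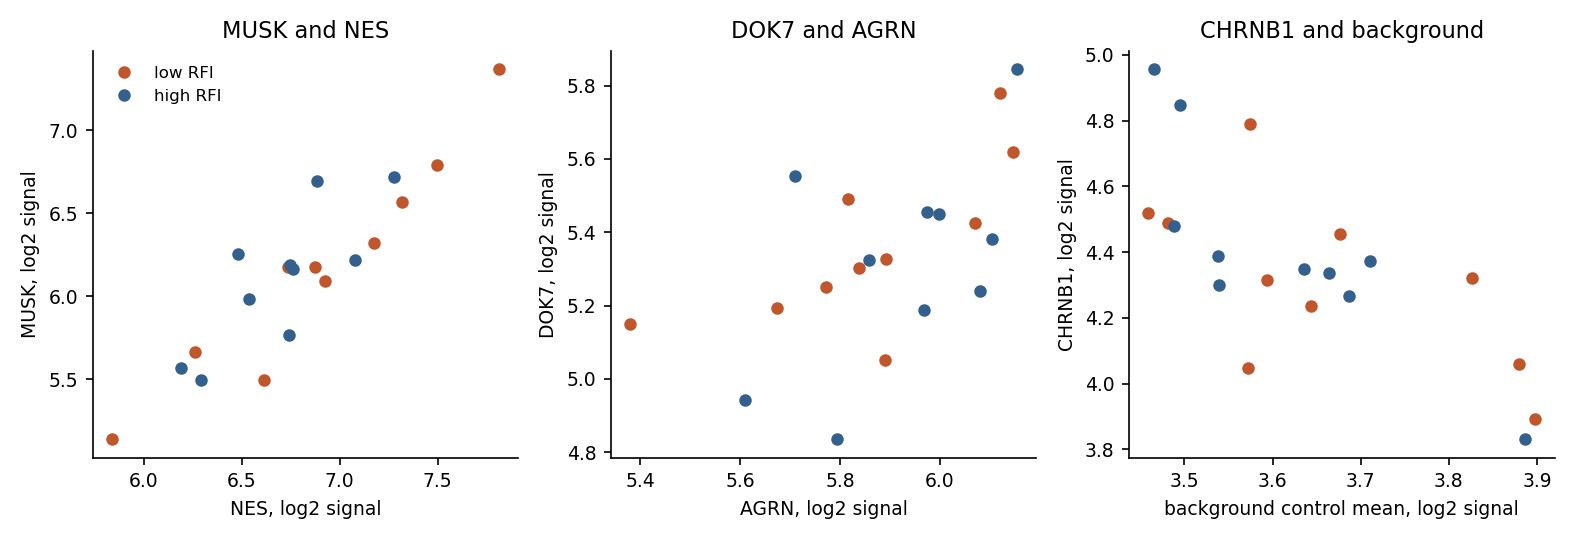
Log2 signals of 20 animals, low RFI and high RFI in 2 colours, for MUSK against NES (left), DOK7 against AGRN (middle) and CHRNB1 against the mean of the background controls (right). The r values are 0.91, 0.59 and -0.73, and animals of both groups lie along each trend.

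For the other genes the closest patterns were looser and, as for MUSK, are given as a description of likeness, with no test of the search. CHRNA1 was most like CDKN1A, the cell cycle inhibitor p21, at r = 0.739 (rho = 0.779), then PHACTR4 at 0.731 and EVI2B at 0.729. The value for CDKN1A was 0.811 in both groups. Among the 656 relations above, CHRNA1 with CDKN1A did not pass by r (adjusted permutation p = 0.0558) but did by rho (0.0372). CHRNE was most like PBX2 at 0.774, SERPINF1 at 0.760 and the ribosomal protein gene RPL35 at 0.755. CHRNG was most like PLTP, a phospholipid transfer protein, at 0.775, then UCKL1 at 0.769 and RGL3 at 0.737. MUSK came next to SLC17A9, a vesicular nucleotide transporter, at 0.805 and ANKRD52 at 0.797.

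DOK7 was most like NAP1L3 at 0.791, LAGE3 at 0.782 and SOD3, the extracellular superoxide dismutase, at 0.763. AGRN was most like ETV7 at 0.822, C15H2orf82 at 0.785 and RBP2 at 0.783. PHACTR4, EVI2B, RGL3, NAP1L3, SOD3 and RBP2 had means below the background mean. CHRNB1 had 100 genes with r above 0.7, where the other 6 genes above background had between 5 and 35. Its closest were CMPK1 at 0.787, RBM24, a muscle RNA-binding protein, at 0.786 and RNF115 at 0.783. After regression on background these 3 were 0.562, 0.444 and 0.504, while MUSK with NES stayed at 0.901.

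Other genes of the junction were taken from 6 lists with 99 genes beside the 10 named, of which 82 were measured, 39 higher and 43 lower in low RFI. By adjusted p limma called 0 of the 82, and at an unadjusted p under 0.05 it counted 3 higher and 1 lower, beside 261 higher and 146 lower of the 12119 genes represented. Their median difference was -0.0064, beside -0.0028 over all genes represented. Among postsynaptic signalling genes (23 measured; 11 higher, 12 lower; median -0.0090), CRK, an adaptor that binds phosphorylated DOK7, read 4.70 ± 0.34 in low RFI and 5.30 ± 0.50 in high RFI. Its difference was -0.60 ± 0.18 (SE; limma p = 0.00294, adjusted p = 0.998), and both its probe sets had the same sign. NRG1, the nerve-derived neuregulin, stood at 0.25 ± 0.10 and RHOA, a small GTPase of the actin skeleton, at 0.25 ± 0.11.

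Among synaptic cleft genes (15 measured; 10 higher, 5 lower; median 0.023) the smallest p belonged to COLQ, the collagen tail that anchors acetylcholinesterase, at 0.19 ± 0.11 (SE). Then came BGN, the proteoglycan biglycan, at 0.25 ± 0.14, and LAMB2, the synaptic laminin chain, at -0.14 ± 0.099. Of the postsynaptic scaffold and channel genes (18 measured; 7 higher, 11 lower; median -0.024), GMPPB, an enzyme of protein glycosylation, stood at 0.20 ± 0.11, SCN4A, the muscle sodium channel, at -0.15 ± 0.097 and ALG14, another glycosylation enzyme, at 0.20 ± 0.16. The mean of this list ran against background (r = -0.923, as a description over 20 arrays), as did that of postsynaptic signalling (r = -0.881). So did the means of fast fibre markers (r = -0.748), denervation genes (-0.650) and skeletal muscle markers (-0.571). The remaining lists ran from -0.453 for slow fibre markers to 0.238 for Schwann cell markers. Of the other nicotinic subunits, which serve mostly neurons and other cells (7 measured; 3 higher, 4 lower; median -0.042), CHRNA5 stood at 0.29 ± 0.11, CHRNA10 at -0.14 ± 0.14 and CHRNA2 at 0.099 ± 0.12. CHRNA5 and CHRNA2 had means below the background mean, as did COLQ, GMPPB and GABPA.

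Transcription regulators of synaptic genes (11 measured; 6 higher, 5 lower; median 0.074) had as genes of smallest p ERF, a repressor of the ETS family, at 0.20 ± 0.11 (SE), HDAC4, a histone deacetylase, at 0.14 ± 0.10 and GABPA, the ETS factor that binds synaptic promoters, at -0.16 ± 0.11. The sign of ERF held in 1 of its 2 probe sets, that of COLQ in 1 of 2, those of HDAC4 and LAMB2 in 1 of 3 each, and that of NRG1 in 2 of 3. Genes that denervation raises (10 measured; 4 higher, 6 lower; median -0.078) included CHRNG itself, and next to it FBXO32 at -0.37 ± 0.21 and TRIM63 at -0.28 ± 0.19, both muscle ubiquitin ligases. NCAM1, the cell adhesion molecule that spreads over denervated fibres, was 7.34 ± 0.54 in low RFI and 7.33 ± 0.35 in high RFI, and RUNX1, another such gene, was 6.81 ± 0.82 in low RFI and 6.90 ± 0.56 in high RFI (SD, n = 10 each). NCAM1 and RUNX1 fall outside the naming rule and were picked after their values were seen. The rest of the list stood at 0.14 for HDAC4, 0.038 for CDKN1A, -0.061 for FBXO30, -0.12 for ANKRD1 and -0.28 for GADD45A. The list counts and median include CHRNG itself. The part of denervation in the CHRNG value was not tested.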

How the data were processed

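The authors deposited log2 signals per probe set for all 20 arrays; the log2 scale was read from their range. Per the labels' protocols, total RNA was reverse transcribed and labelled with biotin, and the submitters' processing notes list GCOS 1.1.1. Summarisation, background correction and normalization are not given in the sources used here. Array means lay between 3.33 and 3.35, so values were used as deposited. Each array was treated as 1 animal, and nothing states litters or batches. Replicate numbers were assigned here in the order of the deposited samples within each group, and are not the study's own.

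Control probe sets (123) and those with a mean at or below the 30th percentile (1.75) were left out, leaving 33405. Gene names came from the platform annotation, with 26426 probe sets having 1 symbol, 0 several and 21419 none; 428 symbols were updated. MicroRNA probe sets stood for no gene. The group difference was fitted in R 4.3.3 with limma 3.58.1 (lmFit, then eBayes, 2-sided), and p-values were adjusted by Benjamini-Hochberg across the 33405 at 0.05. Standard errors and intervals are limma's, except the standard error of CHRNG less CHRNE, which was taken from the variances of the 2 groups. Correlations were tested with 100000 permutations (numpy 2.4.6 in Python 3.11.15), 2-sided. Both tests were run on simulated data. Alternatives changed the filter, normalization, weights, covariates, arrays and test.

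The genes and lists were chosen with earlier results of these data known. Named are all measured members, up to 3 genes of smallest p per junction list, and the 3 genes most like each member above background. The cell type markers named and the further denervation genes fall outside this rule. Sequences and coordinates were not used here; the Sscrofa11.1 gene table served only for names, gene types and which genes are neighbours.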

Additional observations from a re-analysis of the deposited data

Results flagged for a closer look

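Of 26 sets of 10 animals (13 probe sets in each of 2 groups), 1 held an animal far from the rest, where chance gives about 1 in 20. In low RFI replicate 10 the dimmest AGRN probe set read 3.29, and the animal after it in low RFI read 2.51. The gap was 0.523 of the range of the group. This probe set lay below the background controls on all 20 arrays, and the brightest AGRN probe set read 5.77 in the same animal. It enters the difference of that probe set, the correlations between AGRN probe sets and the alternative that averages all probe sets of a gene.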

How the results depend on the processing

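Under 12 alternatives and with each of 20 arrays left out, 0 of the 8 genes passed the adjusted threshold in limma or the rank-sum test, and 244 of 253 recomputed differences kept their sign. That count includes differences that could not change. The changed filters and the rank-sum test leave a gene's difference as it was, and so does averaging for a gene with 1 probe set. CHRNE turned to 0.024 with slow fibre markers as a covariate and to 0.081 without the 4 arrays of highest background. With single arrays left out, CHRNE ran from -0.13 to 0.029, DOK7 from -0.016 to 0.096, MUSK from -0.059 to 0.19, CHRNA1 from -0.32 to -0.095, AGRN from -0.10 to -0.012 and CHRND from 0.18 to 0.31. CHRND was 0.15 and MUSK 0.23 without those 4 arrays, and CHRNA1 was -0.094 as the mean of its probe sets. The sign turned for CHRNE without low RFI replicate 6 or 9 or high RFI replicate 4, for DOK7 without low RFI replicate 3 or high RFI replicate 5 or 7, and for MUSK without low RFI replicate 8. Without the same 4 limma called 1 probe set of all tested (0 in the report), and with single arrays left out from 0 to 1, the 1 without high RFI replicate 9. The 8 genes and the 82 list genes had 0 calls in these runs. No alternative took a pair of the 8 genes past the threshold. A mean of at least 5 left out CHRNB1, CHRND and CHRNG. The causes were not tested. No paired analysis was possible because the labels give no replicate numbers shared by the groups. Signal over background limits CHRND and CHRNG most.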
